A study of Arabidopsis thaliana with 8 samples.

Results

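In the mitochondria of flowering plants, particular cytidines of the transcripts are changed to uridines, which sequencing reads show as T in place of C. The sites described here are those at which the base directly before the edited base is T. In the authors' list each site carries a short stretch of transcript sequence with the edited base sixth from its end, and a site was taken when the seventh base from the end was T. This held for 294 of 434 listed sites (67.7%), in all 29 genes that have a listed site. The base before was C at 109 of the other 140 sites, A at 20 and G at 11. The list writes most sequences in edited form, with T at the edited base itself in 418 of 434 sites, so a T before a site can be an edited C. Matched to the mitochondrial genome, 272 of the 294 sites had a genomic T before them, and the remaining 22 had a genomic C that is itself a listed site 1 base upstream.

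The plants were Arabidopsis thaliana of the wild type accession Col-0, with no mutation or treatment named in the labels, and the material was flowers of plants grown for 10 to 12 weeks. Total RNA depleted of ribosomal RNA was sequenced in 2 libraries, A and B, of this 1 group. Whether the libraries stem from different plants is left unsaid in the labels, and the spread between them may be technical. Flowers hold many cell types, and a level averages over all of their mitochondria. The editing level of a site is the share of T among its T and C reads, in percent, and it was used where both libraries had 20 or more such reads. Of the 294 sites 157 passed, in 24 genes, and 137 did not. Of the other 140 sites 69 passed, which makes 226 in all.

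Editing in plant mitochondria depends on nucleus-encoded pentatricopeptide repeat (PPR) proteins. Each binds a stretch of RNA just upstream of its target through a row of repeats that pair with single bases, and a deaminase domain then changes the cytidine. The base directly before the target is most often a pyrimidine in plants. Most known sites lie in coding sequence, where editing tends to restore amino acids that are conserved among species, and the complex I (nad) and cytochrome c maturation (ccm) transcripts are among the most heavily edited.

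The sequences of the lowest and the most deeply read sites are shown first. Each is printed as listed, 5′ to 3′ on the transcript strand, with the base before the site and the edited base in capitals. The position after each gene name is the authors' transcript position. The 8 sites with the lowest levels were the following.
ccmB 580: tcttgtttggctcttggaaTTacatc
nad4 645: tgttctgcatgctagatctTTtacta
nad2 406: agggacaattttacatattTTtgcca
rps3 288: gtcaatctgagatcttattTCggttc
nad5 1736: agtactttttgtaatcgacTTtatag
ccmFN1 632: cccttgttgattctgaactTTgttcg
nad5 1802: gactttctagtcagatcgtTTctgcg
cob 2512: taggcgccagtcttcttcaTTtggcc

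On the mitochondrial sequence of the TAIR10.1 assembly, counted from 1, the edited base of ccmB 580 is at 17994 on the minus strand and that of nad4 645 at 215145 on the minus strand. The nad2 406 site is at 163064, rps3 288 at 21873, nad5 1736 at 27013, ccmFN1 632 at 316496 and nad5 1802 at 27079, all on the plus strand, and cob 2512 is at 182249 on the minus strand. All 8 lie in annotated coding exons. The rps3 sequence is listed with C at the edited base, as at 10 of the 294 sites. The most deeply read site followed by C is nad5 1802, which is also among the 8 lowest and is shown above. The 3 sequences below are the most deeply read sites followed by A, G and T, all in cox2 on the plus strand, at 6739, 6642 and 6334.
cox2 680: agatctagaattgggtcaaTTacgtt
cox2 583: ctattggacatcaatggtaTTggact
cox2 275: ggaaccatggcaattaggaTTtcaag

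For nad5 680, on the plus strand at 235791, the listed and the genomic sequence are set side by side to show a T that the rule reads from an edited C. In the genome both bases in capitals are C.
nad5 680 listed: atttttgcttgtgctagtgTTcccag
nad5 680 genomic: atttttgctcgtgctagtgCCcccag

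Editing was near complete at most T-preceded sites. Over the 157 sites the mean level was 88.5% ± 0.0048 (SD of the library means, n = 2) and the median 99.96%. The level was 90% or more at 135 sites, between 10% and 90% at 11, and under 10% at 11. Of the 157 sites 86.0% were at 90% or more, against 86.3% of all 226. In both libraries 78 sites had T in every T or C read, and 112 sites had a mean level of 99% or more. Here and below the SD over the libraries measures how well 2 libraries repeat a mean over the same sites; the levels of single sites spread far more, with an SD of 29.0 points over the 157.

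The deepest site, cox2 583, turns an arginine codon of cytochrome c oxidase subunit 2 (complex IV) into a tryptophan codon. T was read in 2803 of 2804 T and C reads in library A and in 7827 of 7830 in library B, a level of 99.96% in each. At cox2 680, a serine-to-leucine change, all 1439 reads of A and all 3063 of B had T. At cox2 275, a serine-to-phenylalanine change, the levels were 100% in A and 99.8% in B. These sites lie at the upper end of the range in both libraries.

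The levels separated by codon position. At codon position 2 all 80 sites were at 95% or more, with a mean of 99.5% ± 0.18 and a lowest level of 95.7%. At codon position 1 the mean was 93.9% ± 0.15 over 52 sites, of which 48 were at 90% or more. At codon position 3 the mean was 39.2% ± 1.27 and the median 12.5% over 23 sites, of which 6 were at 90% or more, 9 between the bounds and 8 under 10%. The mean at positions 1 and 2 together was 58.1 ± 1.4 points above that at position 3. The size of this gap changed with the read minimum, which also changes the sites that enter. It was 54.7 points with 10 reads (187 T-preceded sites) and 84.4 points with 100 (59 sites). At position 3 the median was 57 reads in A, so most of these sites drop out at 100. At nad5 1346, a position 3 site with 100% in both libraries, the genome used here has T, so no edit is needed to read T there. Without it 5 of 22 position 3 sites were at 90% or more, with a mean of 36.5% ± 1.3.

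**Figure D1:**
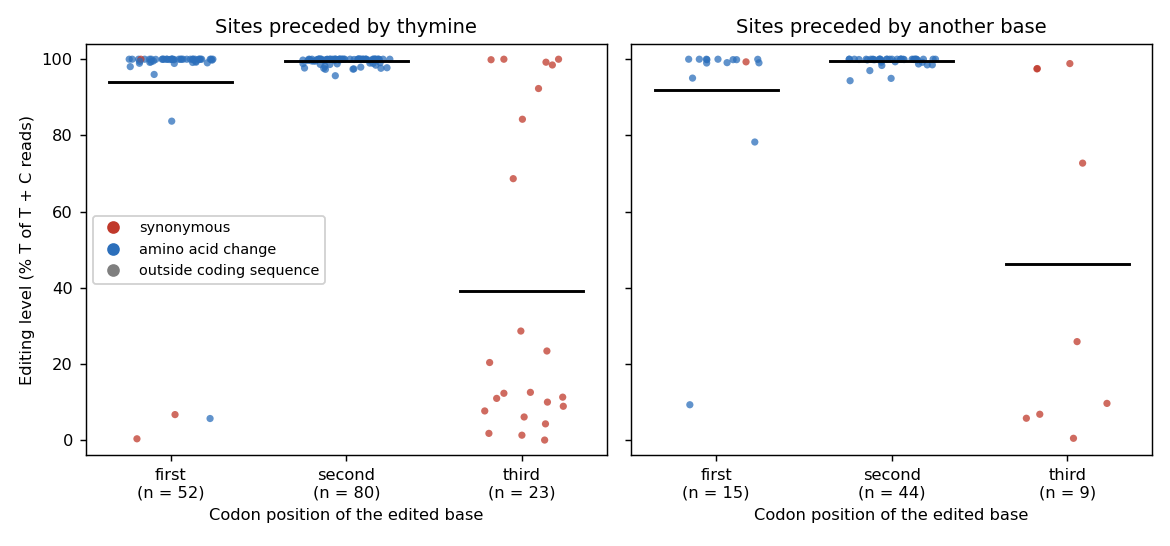
Editing level (percent T of T and C reads, mean of libraries A and B) of each site with 20 or more reads in both libraries, by codon position of the edited base, for sites preceded by thymine and by another base. Each point is a site, coloured by its effect on the codon, and black bars are means: 93.9%, 99.5% and 39.2% for thymine and 91.9%, 99.5% and 46.1% for the other bases at positions 1, 2 and 3.

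The same split followed the effect on the amino acid, read from the codon with its other bases as in the genome. At the 129 sites that change the amino acid the mean level was 98.7% ± 0.17, and 127 were at 90% or more. At the 26 synonymous sites, where the codon means the same amino acid before and after editing, the mean was 38.8% ± 1.13, the median 12.4%, and 7 were at 90% or more. The difference was 59.0 points in library A and 60.8 in library B. Among changes, serine to leucine was the most common, with 47 sites and a mean of 99.6% ± 0.06. Serine to phenylalanine followed with 27 sites at 99.4% ± 0.29, arginine to cysteine with 14 at 92.7% ± 0.51, arginine to tryptophan with 12 at 99.6% ± 0.28 and proline to serine with 12 at 98.6% ± 0.18. Histidine to tyrosine had 9 sites at 99.9% ± 0.05. All of these except arginine to cysteine and proline to serine had every site at 90% or more.

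Silent sites differed among themselves by codon as read in the genome. The 7 sites in phenylalanine codons (TTC to TTT) had a mean of 11.2% ± 0.90, and none reached 90%. The 8 silent leucine sites averaged 40.9% ± 1.06 with 3 at 90% or more, and the 7 silent isoleucine sites averaged 55.9% ± 0.48 with 3 at 90% or more, nad5 1346 among them. The phenylalanine sites ran from 1.28% to 28.6%, the leucine sites from 0.33% to 100% and the isoleucine sites from 0% to 100%. The 3 silent sites at codon position 1 are in leucine codons. These classes depend on how the codon is read. With the other listed site of their codon edited, cox2 231 (CTC) and rps12 329 (TCC) are also TTC to TTT. Their mean levels were 100% and 98.5%.

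Of the 22 sites under 90%, 19 were synonymous, 2 changed the amino acid and 1 lay outside coding sequence. At ccmB 580, a silent isoleucine site in a subunit of the transporter complex for cytochrome c maturation, T was read in 0 of 20 reads in A and 0 of 26 in B. A count of 0 was taken to allow up to 3 T reads, which is a level of up to 15.0% in A and 11.5% in B at these depths. The nad4 645 site is silent at position 1 of a leucine codon, in a proton-pumping membrane subunit of complex I; its level was 0% in A, which allows up to 5.66% at 53 reads, and 0.66% in B, where 1 of 151 reads had T. At these sites and at nad2 406 (1.75% in A, 0.80% in B) and rps3 288 (2.70% and 0.81%), both silent in phenylalanine codons, the levels rest on at most 2 T reads per library.

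More reads stood behind the low levels of other silent sites. In nad5, another membrane subunit of complex I, position 1736 had 3.70% (4 of 108 reads) in A and 4.80% (19 of 396) in B. At nad5 1802 the levels were 7.34% of 327 reads and 4.78% of 942. In cob, cytochrome b of complex III, position 2512 had 7.14% of 350 reads and 6.23% of 546. The site is at position 1 of a leucine codon, where CTG and TTG mean the same. The deepest of the low sites was atp1 1470, a silent valine site in the alpha subunit of ATP synthase, with 9.52% of 756 reads and 8.22% of 1509. At each of these 4 sites both libraries were under 10%.

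The site ccmFN1 632 was the exception among sites that change the amino acid. It turns an arginine codon (CGT) into a cysteine codon (TGT) in a component of the haem lyase for cytochrome c, and its level was 2.78% (1 of 36 reads) in A and 8.54% (7 of 82) in B. Wilson 95% intervals were 0.49% to 14.2% and 4.197% to 16.6%. The other such site under 90% was atp4 515 in a membrane subunit of ATP synthase, with 85.1% of 483 reads in A and 82.4% of 1152 in B. It is the first base of a CCG proline codon whose second base, atp4 516, is also a site and was edited at 100% and 99.9%. With position 516 edited the codon is CTG or TTG, and both mean leucine. The same holds at nad1 951, the other of 2 such sites, where the level was 100% in both libraries. Intervals and limits here and elsewhere cover counting error only.

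The remaining sites under 10% were nad2 1357, with 6.82% in A and 8.47% in B, and atp4 409, with 8.33% and 11.6%. Between 10% and 35% lay 7 sites, nad4 1433, nad7 1163, rpl2 908, cob 2826, nad4 1628, nad5 872 and nad4 311. All 9 are silent at codon position 3. Levels among them were 28.6% in A and 12.1% in B at nad4 1628, 8 T of 50 reads and 8 of 26 at nad5 872, and 31.3% and 25.9% at nad4 311. Above them came nad7 1169 with 66.3% and 71.0%, and nad5 680 with 90.7% and 77.8%.

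Synonymous sites at 90% or more were the reverse case. In nad7, a peripheral-arm subunit of complex I, position 398 is the silent base of an isoleucine codon, and T was read in 95 of 95 reads in A and 372 of 373 in B. At nad4 351, silent at position 1 of a leucine codon, all 47 and all 150 reads had T. In cox2, position 231 had T in all 31 reads of A and all 171 of B, and position 342 had levels of 90.3% and 94.3%. The others were atp4 403 (100% and 98.4%), rps12 329 (100% and 97.0%) and nad5 1346. They show that the silent T-preceded sites were not uniformly low; they ran from 0% to 100%. These sites were chosen after their values were seen.

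The authors' tables also hold a reference editing level for each site, of an origin that no source used here names. All 22 sites under 90% also had a reference level under 90%, and at 21 of them the measured level was the lower value. These 22 were picked by a low measured level, which by itself favours a measured value below the reference. Over all 157 sites the mean was 88.5% measured and 86.7% in the reference. At 111 of the 135 sites at 90% or more the reference was 90% or more too. Mean reference levels were 92.0% at codon position 1, 96.1% at position 2 and 44.1% at position 3.

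The base after the site was compared next. The mean level was 88.6% ± 0.11 over 51 sites followed by A, 88.5% ± 0.10 over 18 followed by C, 91.7% ± 0.03 over 50 followed by G and 84.3% ± 0.12 over 38 followed by T. Sites followed by a purine were on average 4.44 ± 0.18 points higher than those followed by a pyrimidine, with 4.31 points in A and 4.57 in B. The medians were 99.96% in both classes. The share under 90% was 12 of 101 sites for a purine and 10 of 56 for a pyrimidine. Among the 129 sites that change the amino acid, the difference was −0.69 ± 0.06 points, with 98.5% for purines and 99.2% for pyrimidines, and all but ccmFN1 632, followed by G, and atp4 515, followed by T, were at 90% or more. By codon position it was 3.36 ± 0.05 points at positions 1 and 2, where the silent sites nad4 645 and cob 2512 are followed by T, and 4.96 ± 0.76 at position 3. Among the 26 synonymous sites it was 5.09 ± 0.34 points, and 12 of the 26 were followed by a pyrimidine, against 44 of the 129. The purine-minus-pyrimidine difference was larger, 11.6 points, where 50 reads were required. Sites preceded by another base had a difference of 8.03 ± 0.28 points over 69 sites. It was 4.95 ± 0.01 points at their codon positions 1 and 2 and −26.6 ± 4.4 at position 3, with 3 against 6 sites.

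The lowest site within each class of following base was ccmB 580 for A, nad5 1802 for C, rps3 288 for G and nad4 645 for T, so each following base had sites at 100% and sites under 10%. Where the following base was a listed site shown as T but C in the genome, the level averaged 96.7% over 5 sites, and where it was T in the genome it averaged 82.4% over 33.

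Spacing to the next listed site of the same gene was counted in bases along the transcript. Sites whose next site lay 1 to 5 bases on averaged 94.0% ± 0.83 (16 sites), those at 6 to 20 bases 92.4% ± 0.20 (28 sites), those at 21 to 50 bases 93.0% ± 0.33 (52 sites) and those at more than 50 bases 79.7% ± 0.11 (51 sites). The last site of a gene averaged 90.6% ± 0.32 (10 sites). Sites with the next at 20 bases or fewer were on average 6.18 ± 0.60 points above the others. Of the 51 widely spaced sites 12 were under 90%, and 12 of the 51 were synonymous, against 6 of the 44 at 20 bases or fewer. Among sites that change the amino acid the difference was 0.87 ± 0.25 points (38 against 91 sites), and at codon positions 1 and 2 together it was −0.70 ± 0.23. At codon position 3 it was 30.4 ± 3.3 points, with 63.0% over 5 sites against 32.6% over 18, and among synonymous sites 17.9 ± 2.6 points (6 against 20 sites). With a minimum of 100 reads it was −0.92 points over all positions. Sites preceded by another base had a difference of 8.14 ± 0.30 points. It was 2.69 ± 0.48 at their codon positions 1 and 2 and 33.8 ± 0.19 at position 3 (3 against 6 sites). Their lowest mean was at 21 to 50 bases, 76.9% ± 0.48 (17 sites), against 91.2% ± 0.12 (20 sites) at more than 50 bases.

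**Figure D2:**
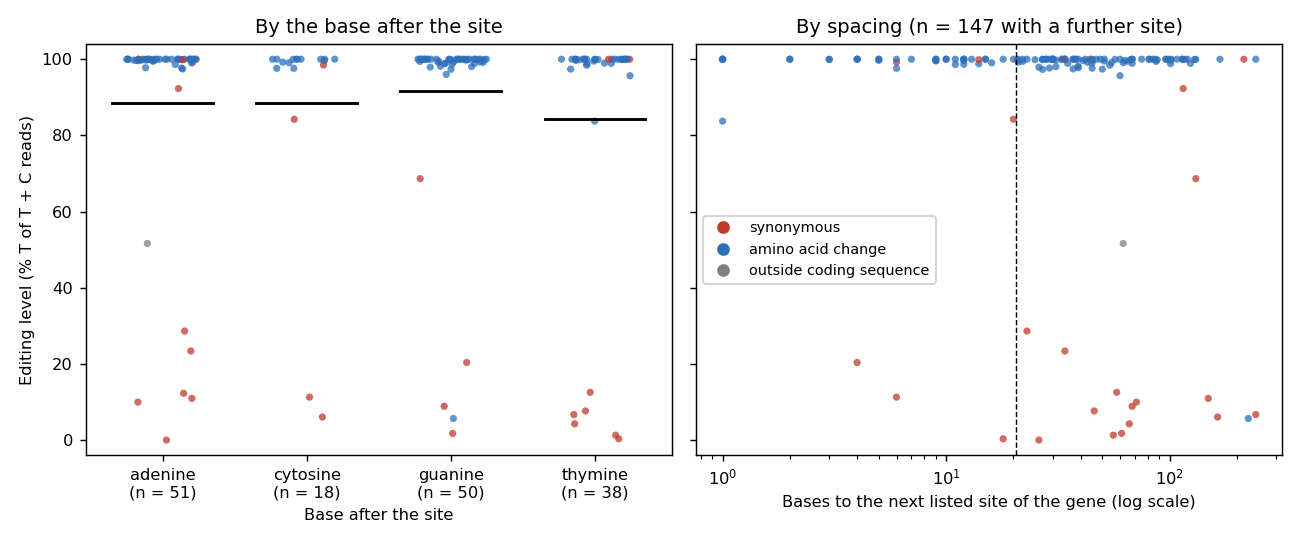
Editing level (percent T of T and C reads, mean of both libraries) of the 157 T-preceded sites by the base after the site (left; black bars are means, from 84.3% for thymine to 91.7% for guanine) and by the number of bases to the next listed site of the gene (right, log axis, 147 sites with a further site; the dashed line separates 20 bases or fewer). Each point is a site, coloured by its effect on the codon; the low points are nearly all synonymous sites, at every following base and mostly at wide spacing.

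Sites directly next to each other gave a closer view of spacing. There were 23 such pairs in the list, in 22 of which the second site is listed with T before it, and 9 pairs passed in both sites. At nad1 951 and 952, in a CCG codon, all reads at both sites had T in both libraries, and the same held for nad3 439 and 440. At nad4 663 and 664 the levels were 100% at the first in both libraries, and 99.3% and 100% at the second. The pair atp4 515 and 516 had the lower level at the first site (83.7% against 99.96%). At nad1 1136 and 1137 the first site, silent at codon position 3, had 98.4% in A and 99.4% in B. The second had 100% and 98.4%. Outside the 5 pairs with the most reads, the second, silent site was lower at nad5 679 and 680 (84.2% against 100%). At rps12 328 and 329 the second, silent site had 98.5% against 100%. Over all 9 passing T-preceded sites with a genomic C before them the mean was 97.4% ± 0.96, against 88.0% ± 0.06 over the 148 with a genomic T, and 1 of the 9 was under 90%.

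By gene, the T-preceded sites that passed were most numerous in nad7 (22), nad4 (21), nad5 (21) and nad2 (14), followed by cox2 and nad1 with 10 each. In 13 of the 24 genes every such site was at 90% or more. Among genes with 3 or more sites the highest means were in atp9, the membrane ring subunit of ATP synthase (99.95% ± 0.021), nad9 (99.9% ± 0.098) and nad3 (99.7% ± 0.44). The lowest were in ccmB (66.7% ± 0), cob (69.9% ± 1.22) and atp4 (82.1% ± 0.13). In ccmB the single site at 0% stood beside 2 sites at 100%, and in cob the silent sites 2512 and 2826 stood beside 4 sites at 90% or more. At codon positions 1 and 2 alone, 18 of 22 genes had a mean of 98% or more.

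**Figure D3:**
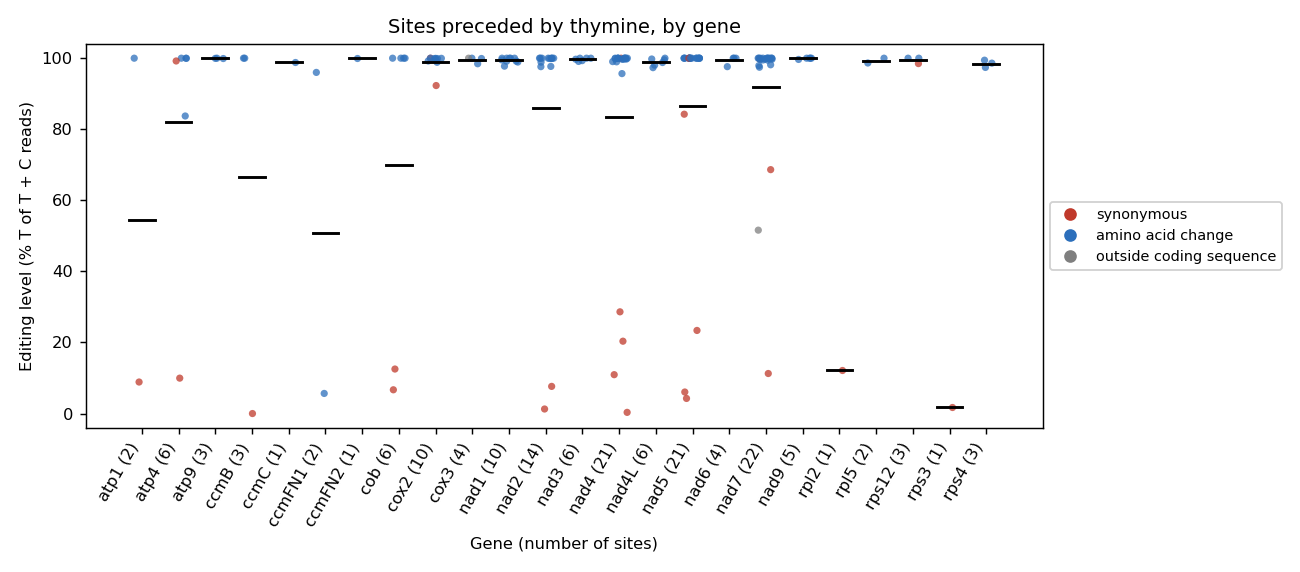
Editing level (percent T of T and C reads, mean of both libraries) of the 157 T-preceded sites by gene, with the number of sites in brackets. Each point is a site, coloured by its effect on the codon, and black bars are gene means; low gene means come with 1 to 4 low sites beside sites near 100%, except in rpl2 and rps3, which have 1 site each.

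By protein complex, 109 of the 133 listed T-preceded sites in complex I genes passed, with a mean of 90.6% ± 0.09, and 14 of 15 in complex IV genes, with 99.1% ± 0.33 and every site at 90% or more. ATP synthase genes had 11 of 12 sites passing, with a mean of 82.0% ± 0.15, and cob, for complex III, 6 of 8. Only 7 of 72 sites in cytochrome c maturation genes passed, with a mean of 71.5% ± 1.44, and 10 of 33 in ribosomal protein genes, with 80.7% ± 1.49. None of the 21 sites in matR and mttb passed. At codon positions 1 and 2 alone, the means were 97.9% in ATP synthase genes (8 sites), 98.5% in complex I (95) and 99.6% in complex IV (11). Ribosomal protein genes had 99.2% (7 sites), cytochrome c maturation genes 83.4% (6) and cob 81.3% (5).

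Against the 69 sites preceded by another base, the T-preceded sites had a lower mean (88.5% against 90.2% ± 0.24) and nearly the same median (99.96% against 99.92%). The difference in means was −1.64 ± 0.23 points, with −1.48 in A and −1.80 in B. Other sites were at 90% or more in 60 cases, in the middle in 4 and under 10% in 5. The sign of the difference was not stable. It was 0.655 points with a minimum of 10 reads and 0.216 points without codon position 3. In library B alone it was 0.201 points, where the minimum applied to B only and 189 and 87 sites entered. Within codon positions it was 1.98 ± 0.82 points at position 1, 0.028 ± 0.11 at position 2 and −6.90 ± 2.4 at position 3, where 23 sites stood against 9. Among sites that change the amino acid the T-preceded ones averaged 98.7% and the others 97.5% over 58 sites. In the 19 genes with both kinds the T mean was higher in 8 and lower in 11, with a median difference of −0.049 points. The range was from −45.5 points in atp1 to 22.9 points in nad7, and 7 genes were within 1 point. These extremes rest on few sites. In atp1 2 T-preceded sites, 1 at codon position 3, stood against 3 others, none at position 3. In nad7 22 sites, 3 at position 3, stood against 3 others, 2 at position 3.

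**Figure D4:**
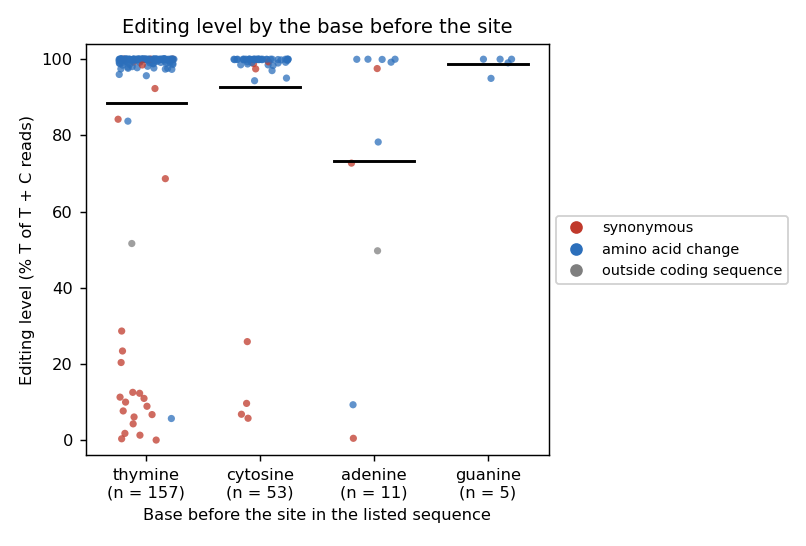
Editing level (percent T of T and C reads, mean of both libraries) of all 226 sites with 20 or more reads in both libraries, by the base before the site in the listed sequence. Each point is a site, coloured by its effect on the codon, and black bars are means: 88.5% for thymine, 92.8% for cytosine, 73.4% for adenine and 98.8% for guanine.

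By single base, sites preceded by C averaged 92.8% ± 0.19 over 53 sites with 4 under 90%, those preceded by A 73.4% ± 0.28 over 11 with 5 under 90%, and those preceded by G 98.8% ± 0.67 over 5 with none. The classes A and G are small: the lowest A site, nad5 2000, was a silent aspartate site with 0.58% in A and 0.34% in B, at 1369 and 4140 reads. The lowest sites preceded by C were nad2 763 (6.63% and 4.82%) and nad4 974 (4.88% and 8.67%), silent threonine and serine sites. A second A site, rpl5 579, changes proline to serine and had 14.3% of 21 reads and 4.26% of 47. The most deeply read site preceded by C, cox2 761, had 99.9% in both libraries. Of the 9 low sites in these classes 6 were synonymous, as were 19 of 22 low T-preceded sites.

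In the list as a whole, a T stood 2 bases before the site in 53.1% of the 294 T-preceded sites, against 45.7% of the other 140, and 3 bases before it in 36.1% against 45.7%. Codon position 1 held 34.7% of the T-preceded sites and 35 of the 140 others, position 2 held 49.0% and 57.1% of the 2 sets, and position 3 held 15.3% and 13.6%. These shares describe the list and were not tested.

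The libraries were compared site by site. By Fisher's exact test of T and C reads in A against B, adjusted by Benjamini-Hochberg over all 226 sites, 1 site passed an adjusted p threshold of 0.05, which is 0.442% of those tested, and it was 1 of the 157 T-preceded sites. This was nad7 336, which lies upstream of the annotated coding sequence at 245369 on the minus strand. Its level was 46.1% (442 of 958 reads) in A and 57.1% (504 of 883) in B, a difference of 10.9 points (adjusted p = 0.00068 by Fisher's exact test). At an unadjusted p under 0.05 there were 3 T-preceded sites and 4 sites in all. The median absolute difference between the libraries at the 157 sites was 0 points, and 128 sites were within 2 points; 78 of the 157 were at 100% in both libraries. Among the 22 sites under 90% the median absolute difference was 3.72 points, and 8 were within 2 points. The 5 sites that differed by more than 10 points were all among these 22, nad7 336 included, with 16.4 points at nad4 1628 the largest (adjusted p = 0.249 by Fisher's exact test).

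**Figure D5:**
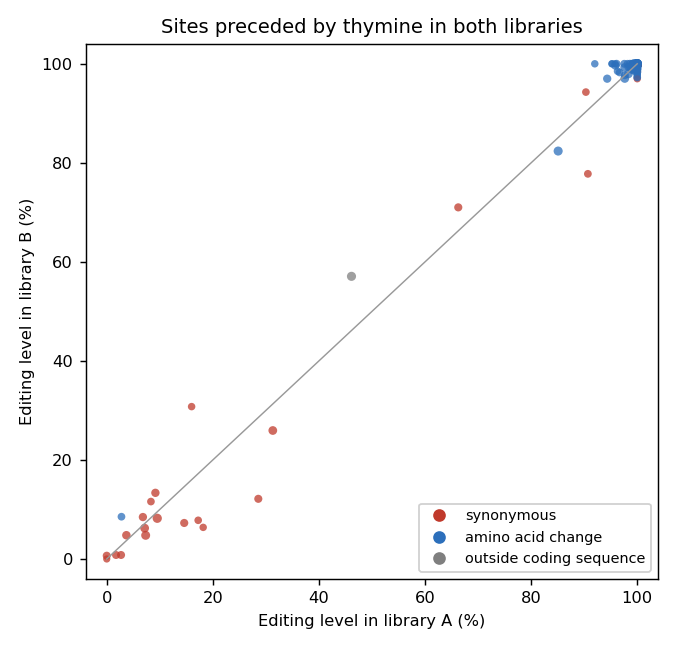
Editing level in library B against library A (percent T of T and C reads) for the 157 T-preceded sites, with the line of equal levels. Each point is a site, coloured by its effect on the codon, larger with more reads; 128 sites lie within 2 points of the line, and nad7 336, the grey point at 46.1% and 57.1%, is the site past the threshold.

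The precision of a level depends on the reads. The T-preceded sites held 28371 T and C reads in library A and 58896 in library B, of 46837 and 100641 at all listed sites. Among the 157 sites the median was 83 reads in A (20 to 2804) and 140 in B (26 to 7830). Just inside the read minimum, the 7 sites whose shallower library had 20 or 21 reads ran from 0% (ccmB 580) to 100%; just outside, the 6 sites with 18 or 19 reads ran from 68.4% (ccmFC 1403 in B) to 100%. Of the 137 sites that did not pass, 7 had no T or C read in either library.

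The reads of these 137 sites, summed, showed the same order of codon positions. The share of T was 83.2% of 1000 reads in A (Wilson 95% interval 80.8% to 85.4%) and 83.8% of 1788 in B (82.0% to 85.4%). At codon position 3 it was 41.1% in A (33.4% to 49.2%) and 43.3% in B (38.3% to 48.5%) over 22 sites, of which 21 had reads in A and 19 in B. It was 87.8% and 93.5% at position 1, and 92.4% and 94.3% at position 2. By effect on the codon, the share was 93.1% and 95.5% at 109 sites that change the amino acid and 38.1% and 43.0% at 27 synonymous sites. These are other sites of the same 2 libraries, and sites with more reads weigh more in the sums. The intervals cover the counting of the summed reads and leave out the spread between sites.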

How the data were processed

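Listed sites were read in 2 RNA-seq libraries of Col-0 flowers. Per the file headers, the deposited tables give whole-number counts of reads with each base at each site, an observed editing fraction and a reference fraction. Reads were handled by the authors with FastQC, cutadapt 1.9.1 and Bowtie 1.1.2, per the submitters' processing notes. No source used here names the alignment reference, the mismatches allowed or the build. Reads with several edited or unedited bases may have been kept unequally, which was not tested. Ribo-seq libraries were not used here.

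Levels were computed from the counts at 20 or more T and C reads in both libraries. Sequences were matched to the mitochondrial genome (367808 bases) of the RefSeq assembly TAIR10.1, whose build may not be the authors': 429 matched exactly and 5 with 1 mismatch. Codons came from its annotation (425 sites coding, 9 not). Group means were compared as values per library, without a test over sites. Libraries were compared by two-sided Fisher's exact tests with Benjamini-Hochberg adjustment over 226 sites, checked on simulated data at the same depths. The simulation gave all unchanged sites the same middle level, so it does not cover the near complete editing of most sites here. Wilson intervals are at 95%. Tests ran in scipy 1.17.1 and statsmodels 0.14.6, tables in pandas 2.3.3 and numpy 2.4.6, under Python 3.11.15. The members, lists and comparisons were chosen with earlier results of these data known. The rule named every T-preceded site under 90%, the deepest and lowest per following base, the 4 lowest and the deepest sites per other preceding base, up to 5 adjacent pairs, and genes by number and mean. Alternatives covered read minimums, denominators, pooling, leaving out a library, bounds, and the base before as in the genome.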

Additional observations from a re-analysis of the deposited data

Results flagged for a closer look

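Reads with neither T nor C at the T-preceded sites lie outside the editing measurement. In library A there were 9 reads with A and 24 with G, together 0.116% of the 28404 reads at these sites, and in library B 18 with A and 12 with G, 0.0509% of 58927. They were drawn to notice because no comparison uses them. The most were at cox2 583, with 13 of the reads of both libraries (0.122%), which is also the deepest site.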

How the results depend on the processing

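Values are in points unless a percent sign is given. The difference between T-preceded and other sites was 0.655, −0.479 and −2.06 with minimums of 10, 50 and 100 reads, and −2.07 in coding sites only. With the base before taken from the genome it was −3.02, and without codon position 3 it was 0.216. The purine-minus-pyrimidine difference was 4.24, 11.6 and 9.73 with these minimums, 4.73 in coding sites only and 2.84 without codon position 3. The spacing difference was 1.69 and −0.917 with 50 and 100 reads, 11.4 with a bound of 50 bases and −0.239 without codon position 3. The codon position difference was 54.7, 74.9 and 84.4 with 10, 50 and 100 reads, 62.9 with the genomic base before and 60.8 without nad5 1346. The amino acid difference was 55.7, 79.7 and 87.1 with these minimums, 64.3 with the genomic base, 62.4 without nad5 1346 and 56.2 with the other listed sites of a codon edited. The share of T-preceded sites at 90% or more was 83.96% and 84.7% with 10 and 100 reads and 86.5% in coding sites only; with bounds of 95% and 80% the share was 85.4% and 87.3%. The cause of these shifts was not tested. The settings with the genomic base, without nad5 1346, without codon position 3 and with a codon's other sites edited, and all those of the codon position and amino acid differences, were chosen after seeing the data. Leaving out each library in turn gave −1.24 (without B) to 0.201 (without A) for the other bases, 3.64 to 5.11 for purines, 5.12 to 6.61 for spacing, 55.1 to 56.3 for codon position, 57.0 to 58.2 for the amino acid and 84.1% to 85.9% for the share. With 1 library the read minimum applies to that library alone, so more sites enter. The count of sites differing between the libraries was 1 with minimums of 10 and 50 reads, with Holm adjustment and at a threshold of 0.01. The levels of 32 named sites moved by at most 8.21 points with 1 library. Leaving out the atp6 copies was not run, because no listed site lies in them. No paired analysis was possible because both libraries belong to 1 group. Depth limits most of the 137 sites under the minimum, where a single read moves a level by more than 5 points.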
